A study of Mus musculus with 27 samples.

Results

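Podocytes are the epithelial cells that wrap the capillaries of the glomerulus, and their interdigitating foot processes are bridged by the slit diaphragm, the last barrier that plasma water crosses before it becomes urine. The slit diaphragm is held by transmembrane proteins that are anchored to the actin cytoskeleton of the foot process, and a small set of transcription factors maintains this differentiated state. Podocytes divide little in the adult, so their transcripts are often read as a sign of how many podocytes a tissue holds and how intact they are. The genes described here, chosen by name from the expression table of whole mouse kidneys, were 6 of this cell type, Nphs1, Podxl, Synpo, Wt1, Plce1 and Ptpro. All 6 are among the 19392 genes in the table, and all 6 were among the 18188 genes that passed the filter on low values (above 0 FPKM in at least 3 kidneys).

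The samples were left kidneys of wild-type C57BL/6 mice with unilateral ischemia reperfusion and removal of the contralateral kidney (the uIRIx model). The left renal pedicle was clamped for 0, 16, 18, 20, 22, 24, 26, 28 or 30 min on a warmed plate, and the kidney was taken 24 h later, with 3 mice in each of the 9 groups and 27 kidneys in all. The 0 min group was the sham control. The described procedure, with 0 min among its clamping times, includes removal of the right kidney. Its removal in the sham mice is not stated separately. Age and sex are not given in the sources used here, and a part of the left kidney was fixed for histology. The replicates are different mice, and no batch is given.

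Levels are in FPKM, fragments scaled to transcript length and to the sequenced total, which allows genes to be compared per unit of length. The absolute sequencing depth of a kidney is unknown from these values. The steps between the lowest values of 23 genes placed the relative depth of the 27 kidneys between 0.943 and 1.08 of their median, and 16498 to 16904 genes were above 0 FPKM in a kidney. Over all genes, the total per kidney ran from 512453 to 554036 FPKM. The kidney label was checked with Slc34a1, the apical phosphate transporter of the proximal tubule, which lay between 2028 and 2377 FPKM in the 0 min kidneys and between 411 and 460 FPKM in the 30 min kidneys. In whole kidney, fewer cells of a type and less RNA per cell cannot be told apart, and likewise more of either.

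The main observation was a late one. None of the 6 podocyte genes passed the test against 0 min at any ischemia time from 16 to 26 min, although Synpo at 26 min came close (limma, adjusted p = 0.052) and passed under several alternatives. At 28 min 2 of the 6 genes were higher, beside 24.5% of all tested genes, and at 30 min 4 of 6, beside 26.9%, a count that was 2 of 6 without replicate 3 at 30 min or in a fit of only the 2 groups compared. At 30 against 0 min Synpo showed the largest difference of the 6 on the log2(FPKM + 1) scale and a 2.86-fold ratio of mean FPKM, while Plce1, which is lower in level, had the larger ratio, 3.13. Nphs1 and Ptpro did not pass the test at any time. The second observation concerned replicate mice of one ischemia time, in which a kidney that was high for one podocyte gene was usually high for the others.

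Nphs1 encodes nephrin, the transmembrane protein that spans the slit between neighbouring foot processes. It lies on the forward strand of GRCm38 at chr7:30458315-30487223. The 3 kidneys at 0 min held 2.18, 3.21 and 3.01 FPKM, the 18 kidneys from 16 to 26 min ranged from 1.98 to 6.20 with a median of 3.34 FPKM, the 28 min kidneys held 3.74, 4.74 and 3.43 FPKM, and the 30 min kidneys held 3.39, 5.37 and 6.46 FPKM. All 6 kidneys at 28 and 30 min were above the highest 0 min kidney, yet only 1 of them was above the highest kidney of the intermediate times. The log2 fold change at 30 min was 0.52 ± 0.29 (SE) with an adjusted p of 0.14 in limma. An antisense transcript, Nphs1os, lies on the opposite strand within Nphs1 with exons that overlap its exons, and because the strand setting of the counting is not given in the sources used here, reads of the pair cannot be told apart.

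Podxl encodes podocalyxin, the strongly charged sialomucin of the apical surface that keeps foot processes apart, and endothelial cells make it too. It was the most abundant of the 6 genes at every ischemia time. It lies on the reverse strand at chr6:31519488-31563981. The kidneys at 0 min held 24.9, 29.9 and 31.9 FPKM, those from 16 to 26 min ranged from 18.0 to 47.7 with a median of 29.1 FPKM, those at 28 min held 39.0, 45.8 and 37.1 FPKM, and those at 30 min held 37.9, 63.4 and 66.8 FPKM. The 28 and 30 min kidneys were all above the 0 min kidneys and overlapped the intermediate ones. Podxl was higher at 30 min than at 0 min by 0.85 ± 0.26 (SE) on the log2 scale (limma, adjusted p = 0.010), and the difference at 28 min, 0.37 with a 95% interval from -0.18 to 0.93, did not pass (adjusted p = 0.26).

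Synpo encodes synaptopodin, an actin-associated protein of the foot process that holds its contractile bundles. It was second in level at every ischemia time. At 0 min it stood at 5.73, 7.02 and 7.95 FPKM, from 16 to 26 min it ranged from 6.47 to 14.9 with a median of 9.75 FPKM, at 28 min it stood at 14.00, 17.51 and 12.56 FPKM, and at 30 min at 13.96, 21.63 and 23.66 FPKM. No kidney of the 18, 20, 22, 26, 28 or 30 min groups was as low as the highest 0 min kidney. In these groups the same held for 29%, 26.4%, 29.9%, 29.1%, 35.5% and 33.3% of all tested genes. The log2 fold change against 0 min was 0.84 ± 0.21 (SE) at 28 min (limma, adjusted p = 0.0020) and 1.27 ± 0.21 at 30 min (adjusted p = 2.9e-05). Synpo was thereby the only one of the 6 genes past both criteria of a differentially expressed gene (DEG), an adjusted p below 0.05 and an absolute log2 fold change above 1. At 26 min the difference of 0.54 fell just short of the threshold, with an adjusted p of 0.052.

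Plce1 encodes phospholipase C epsilon 1, a signalling enzyme whose loss causes nephrotic syndrome in people and which many cell types express. It was the least abundant of the 6 genes at every time, and it lies on the forward strand at chr19:38481109-38785030. At 0 min the kidneys held 0.52, 0.59 and 0.56 FPKM, from 16 to 26 min they ranged from 0.58 to 0.99 with a median of 0.825 FPKM, at 28 min they held 1.17, 1.43 and 1.03 FPKM, and at 30 min 1.13, 1.31 and 2.78 FPKM. Each of the 6 kidneys at 28 and 30 min was above each of the 21 others, and replicate 3 at 30 min stood well above the rest. On the log2(FPKM + 1) scale, which understates the change of a gene this low, the difference from 0 min was 0.43 ± 0.13 (SE) at 28 min (limma, adjusted p = 0.0075) and 0.68 ± 0.13 at 30 min (adjusted p = 1.3e-04). The ratio of the mean FPKM was 2.17 at 28 min and 3.13 at 30 min.

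Ptpro encodes a receptor-type tyrosine phosphatase of the podocyte's apical membrane, known as GLEPP1. It lies on the forward strand at chr6:137252319-137463233. At 0 min it stood at 1.64, 3.13 and 3.08 FPKM, from 16 to 26 min it ranged from 1.64 to 4.86 with a median of 2.79 FPKM, at 28 min it stood at 3.67, 4.50 and 3.37 FPKM, and at 30 min at 2.69, 4.46 and 3.81 FPKM. The lowest 30 min kidney lay among the 0 min kidneys, and no late kidney exceeded the highest intermediate one. The log2 fold change was 0.31 at 28 min (limma, adjusted p = 0.35) and 0.25 with a 95% interval from -0.29 to 0.78 at 30 min (adjusted p = 0.46).

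Wt1 encodes a zinc finger transcription factor required for kidney development, which podocytes keep expressing in the adult. It lies on the forward strand at chr2:105126529-105173616. At 0 min it stood at 1.98, 2.88 and 2.78 FPKM, from 16 to 26 min it ranged from 1.48 to 4.59 with a median of 2.47 FPKM, at 28 min it stood at 3.51, 4.45 and 2.96 FPKM, and at 30 min at 3.35, 7.32 and 8.01 FPKM. Replicates 2 and 3 at 30 min were the highest of all 27 kidneys, whereas replicate 1 of that time lay among the 28 min kidneys. Wt1 was higher at 30 min than at 0 min by 0.84 ± 0.26 (SE) on the log2 scale (limma, adjusted p = 0.011). At 28 min the difference was 0.26 (adjusted p = 0.46).

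**Figure D1:**
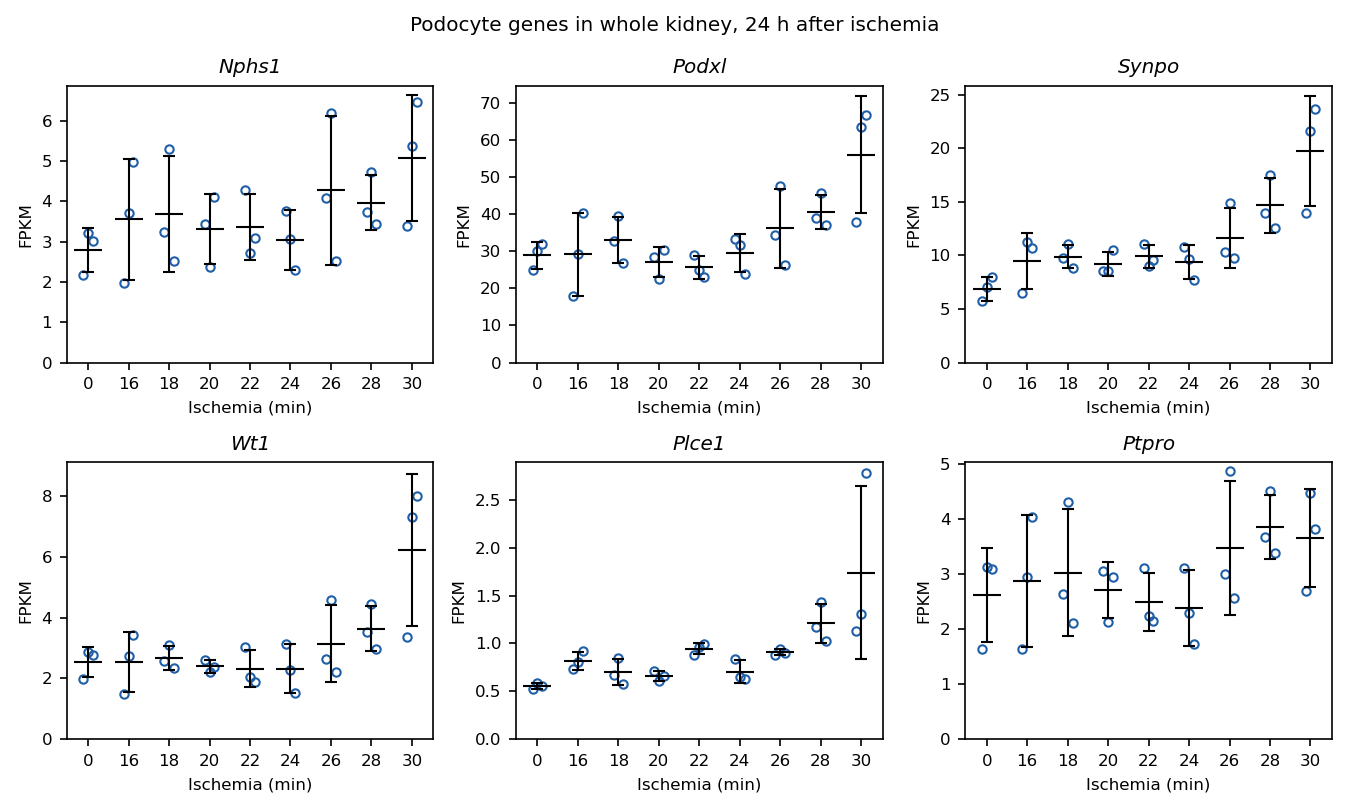
FPKM of the 6 podocyte genes (vertical axes, each from 0) against ischemia time in min (horizontal axes, not to scale). Circles are single kidneys, the horizontal mark is the mean and the bar the SD of the 3 kidneys. Each time from 16 to 26 min overlaps the 0 min kidneys for Nphs1, Podxl, Wt1 and Ptpro. Synpo overlaps them at 16 and 24 min, and Plce1 at 18 min. The 28 min kidneys lie above the 0 min kidneys for all 6 genes, as they do for 35.5% of all tested genes.

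The counts were read against those of all tested genes. The genes other than Plce1 varied together between replicate kidneys, so these are not counts of independent observations. At 30 against 0 min, 4 of the 6 podocyte genes had an adjusted p below 0.05, beside 52.3% of all tested genes in either direction and 26.9% that were higher. Of the 6 genes, 1 was a DEG, beside 10.7% of all tested genes (5.14% as higher DEGs). In 5 of the 6 genes every 30 min kidney was above every 0 min kidney, beside 33.3% of the tested genes, and at 28 min this held for 6 of 6, beside 35.5%. These separations use FPKM before quantile normalization. Every kidney was below every 0 min kidney for 21.2% of the tested genes at 30 min and 21.4% at 28 min. The median log2 fold change at 30 min was 0.76 over the 6 genes and 0.00077 over all tested genes.

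At 28 against 0 min, 2 of the 6 genes, Synpo and Plce1, had an adjusted p below 0.05, beside 48.2% of all tested genes (24.5% higher), and none was a DEG, beside 8.48%. In each of the 6 comparisons of 16 to 26 min with 0 min, limma found 0 of the 6 genes at an adjusted p below 0.05, while the share of all tested genes that passed was 19%, 27.8%, 22.8%, 28.8%, 28.3% and 30.1% in order of rising time. At an unadjusted p below 0.05 there was 1 member, Synpo at 26 min (39.8% of all tested genes), and none at the other 5 times. The mean of the 6 intermediate times against 0 min likewise gave 0 of 6 members, beside 38.2% of all tested genes, with Synpo nearest at 0.35 ± 0.16 (SE, adjusted p = 0.087). The differences of the 6 genes at 16 to 26 min lay between -0.28 and 0.54 on the log2 scale. These comparisons share the same 3 kidneys at 0 min, so they are not independent of each other.

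A further comparison used no 0 min kidney. The mean of 28 and 30 min against the mean of 16 to 26 min, 6 kidneys against 18, was higher for 4 of the 6 genes at an adjusted p below 0.05 in limma, beside 52.1% of all tested genes and 29.6% that were higher. Wt1 was higher by 0.71 ± 0.15 (SE, adjusted p = 5.6e-04), Synpo by 0.70 ± 0.12 (adjusted p = 4.2e-05), Podxl by 0.67 ± 0.15 (adjusted p = 8.7e-04) and Plce1 by 0.48 ± 0.073 (adjusted p = 1.2e-05). Ptpro, at 0.35 ± 0.15 (adjusted p = 0.058), and Nphs1, at 0.30 ± 0.17 (adjusted p = 0.14), did not pass. None reached the fold limit of a DEG, which 3.67% of all tested genes did, and Plce1 alone had groups that did not overlap, beside 7.54% of the tested genes with every late kidney above.

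Between neighbouring ischemia times from 16 min on, no podocyte gene passed in limma. The share of all tested genes with an adjusted p below 0.05 was 0% for each step up to 26 min, 19.3% at 28 against 26 min and 13.2% at 30 against 28 min. The closest was Wt1 at 30 against 28 min, with 0.58 ± 0.26 (SE), an unadjusted p of 0.040 (26.8% of all tested genes were below 0.05) and an adjusted p of 0.16, the only neighbouring comparison with a member below an unadjusted p of 0.05. Over the 9 times together, the moderated F-test of limma passed for 4 of the 6 genes, beside 55.1% of all tested genes. These were Plce1 (adjusted p = 6.3e-04), Synpo (0.0010), Wt1 (0.022) and Podxl (0.027), while Ptpro (0.52) and Nphs1 (0.70) did not pass. Among the 6 times from 16 to 26 min alone, no member and none of the 18188 tested genes passed the same test after adjustment, and 866 genes (4.76%), none of them a member, had an unadjusted p below 0.05.

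**Figure D2:**
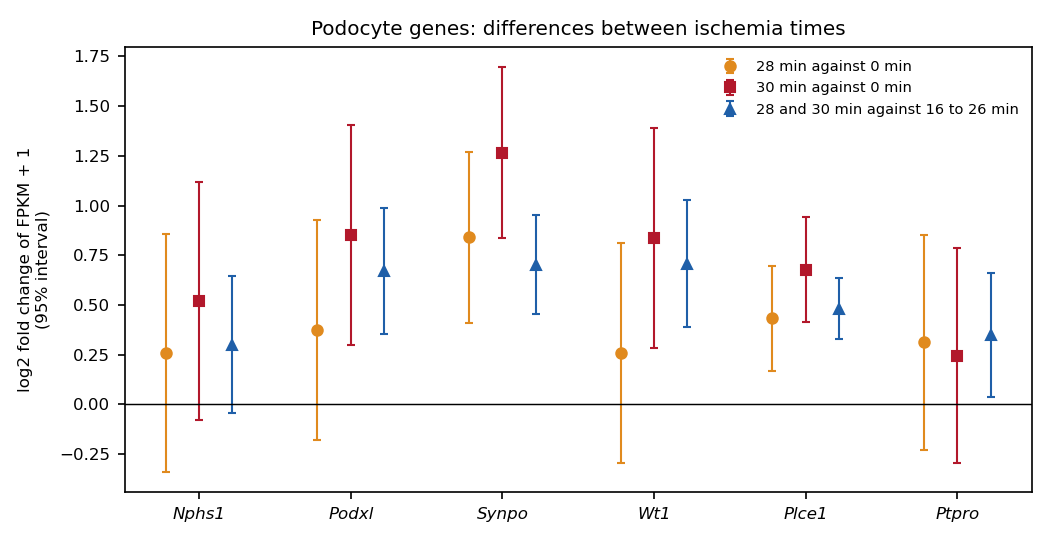
Log2 fold change of FPKM + 1 (vertical axis) of the 6 podocyte genes for 28 and 30 min against 0 min and for 28 and 30 min against 16 to 26 min. Bars are 95% intervals from the limma fit and the horizontal line marks no difference. The interval at 30 against 0 min clears 0 for Podxl, Synpo, Wt1 and Plce1 and spans it for Nphs1 and Ptpro.

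Single kidneys of the 30 min group weighed on these counts. Without replicate 3 at 30 min the count at 30 against 0 min was 2 of 6, as Podxl (limma, adjusted p = 0.059) and Wt1 (adjusted p = 0.067) no longer passed, and Wt1 also missed the threshold without replicate 2 at 30 min (adjusted p = 0.061) or replicate 1 at 0 min (adjusted p = 0.054). Replicate 3 at 30 min stood apart in another way, as its thick ascending limb and collecting duct genes summed to 2725 FPKM, compared with 704 and 712 FPKM in the other kidneys of that time. Without replicate 1 at 30 min, the lowest of its group for all 6 genes, 3 members were DEGs against 0 min and 3 passed at 30 against 28 min. Synpo and Plce1 stayed below an adjusted p of 0.05 at 30 against 0 min whichever of the 6 kidneys was left out, with highest values of 3.4e-04 and 9.7e-04.

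The levels of the 6 genes were also set against each other. Relative to the mean log2 FPKM of the other 5 genes, Synpo stood at 1.15 ± 0.12 (SD, n = 3) at 0 min, at 1.49 ± 0.15 (n = 18) from 16 to 26 min and at 1.62 ± 0.071 (n = 6) at 28 and 30 min. Each late kidney, at 1.53 or more, was above each 0 min kidney, at 1.22 or less. Nphs1 stood at -0.42 ± 0.067 at 0 min, -0.35 ± 0.19 at 16 to 26 min and -0.70 ± 0.034 at 28 and 30 min, where it was below each 0 min kidney. Ptpro stood at -0.59 ± 0.32 at 0 min, -0.72 ± 0.023 at 28 min and -1.27 ± 0.31 at 30 min. By mean level Wt1 was below Ptpro up to 28 min and above Nphs1 at 30 min, while the order Podxl, Synpo, Nphs1, Ptpro, Wt1, Plce1 held from 0 to 28 min. These relative levels are given as a description and were not tested.

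Within one ischemia time the replicate kidneys were ordered much alike by the 6 genes. The same kidney was lowest for all 6 genes at 7 of the 9 times and for 5 or 6 genes at 8 of them, and the same kidney was highest for all 6 at 4 times and for 5 or 6 at 7 times. At 16 min, replicate 1 was lowest for all 6 genes, as it was for 30.9% of all tested genes, and its Podxl of 18.0 FPKM compared with 29.3 and 40.4 FPKM in the others. At 26 min, replicate 2 was highest for all 6 genes (30.7% of all tested genes), with Nphs1 at 6.20 FPKM beside 4.09 and 2.53 FPKM. At 30 min, replicate 1 was lowest for all 6 (32.1% of all tested genes).

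This order was tested with each kidney's deviation from the mean log2(FPKM + 1) of its own ischemia time, for the 15 pairs of the 6 genes over 27 kidneys. For the 10 pairs without Plce1, Pearson's r lay between 0.86 and 0.96 and Spearman's rho between 0.83 and 0.95, with adjusted p no higher than 7.5e-05 and 9e-05 in two-sided permutation tests within ischemia times. Nphs1 and Podxl were the closest pair, with r = 0.96, rho = 0.95 and an unadjusted p of 1e-05 for each, the smallest that 100000 permutations can give. Nphs1 and Ptpro, the 2 genes without a passing difference between times, had an r of 0.93 and a rho of 0.92. After the 2 kidneys farthest from the median of the first gene were left out, r of these 10 pairs was between 0.83 and 0.95.

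Plce1 followed the others less closely. Its 5 pairs had r between 0.39 and 0.58 and rho between 0.58 and 0.64, and by permutation tests all 5 had an adjusted p below 0.05 for rho (highest 0.012) and 4 for r, the exception being Wt1 with Plce1 (r = 0.58, adjusted p = 0.064). Without the 2 farthest kidneys the r of these pairs was between 0.41 and 0.58. Plce1 also had the smallest typical spread between replicates, with a median coefficient of variation of 11.6% over the 9 times, compared with 16.6% for Synpo, 17.3% for Podxl, 26.5% for Nphs1, 26.9% for Wt1 and 29.0% for Ptpro. Its widest spread, 52.0%, was at 30 min.

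**Figure D3:**
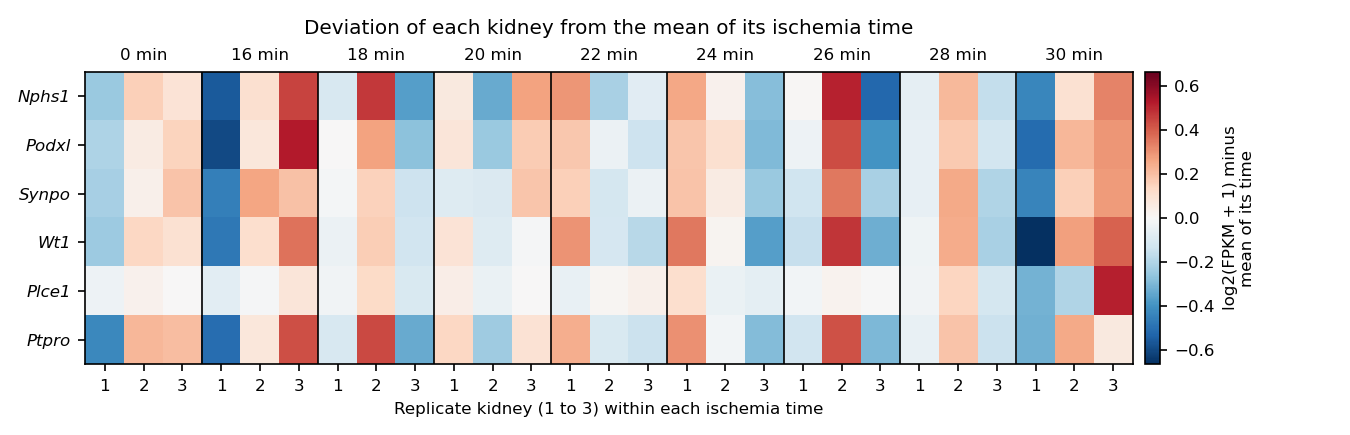
Deviation of each of the 27 kidneys from the mean log2(FPKM + 1) of its ischemia time, for the 6 podocyte genes (rows), with kidneys in columns grouped by time. Red is above and blue below the time mean, and columns of one colour show a kidney that was high or low for all genes, such as replicate 1 at 16 and 30 min (low) and replicate 2 at 26 min (high), with Plce1 paler at most times.

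Other genes shared this order of kidneys. Over the 27 kidneys, the genes outside the 6 with the highest Pearson correlation with their mean standardized level included Ddn (r = 0.94), Nebl (0.93), Shisa3 (0.91) and Sema3g (0.91). Ddn encodes dendrin, a slit diaphragm protein, Nebl the actin-binding nebulette, and Sema3g a secreted semaphorin. With the time means removed, their r with the mean deviation of the 6 genes was 0.92 for Nebl, 0.92 for Sema3g, 0.91 for Shisa3 and 0.88 for Ddn, and all 4 were among the 7 highest of 18182 other tested genes. The median of these other genes was -0.033, with 90% of them between -0.49 and 0.44, and 15 genes (0.0825%) exceeded 0.8. These correlations are descriptions over kidneys that share ischemia times. The r over the 27 kidneys used quantile normalized values, and the r with time means removed used log2(FPKM + 1) without quantile normalization. The 4 genes were picked by their correlation over these same kidneys, so their high r and ranks within times follow in part from that choice.

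Among the lists of podocyte genes, likeness within ischemia times differed by gene. An r above 0.5 was reached by 544 (2.99%) of the 18182 other tested genes. Of 13 slit diaphragm and adaptor genes in the table, 6 exceeded an r of 0.5, among them the guidance receptor gene Robo2 (0.84) and the scaffold gene Magi2 (0.77). The rest were Kirrel (0.36), Nck2 (0.21), Trpc6 (0.029), Nck1 (0.016), Cd2ap (-0.11), Fat1 (-0.19) and Kirrel3 (-0.24). Of 6 podocyte transcription factors 4 exceeded 0.5, among them Lmx1b (0.74), Dach1 (0.70) and Foxc2 (0.58), whereas Tcf21 (0.20) and Foxc1 (-0.39) did not. Of 13 foot process cytoskeleton genes 3 did, Clic5 (0.82), Nes (0.77) and Ezr (0.62). None of 10 basement membrane and adhesion genes did, and with a share of 2.99% over the other tested genes a list this short may hold none.

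Outside the podocyte, 3 of 7 endothelial genes exceeded an r of 0.5, with 0.73 for Ehd3, a gene of glomerular endothelium, 0.73 for the VEGF receptor gene Kdr and 0.60 for Flt1, and the pan-endothelial genes Pecam1 and Cdh5 were at 0.44 and 0.32. Of 5 mesangial genes 1 did, Agtr1a (0.55), with a list median of 0.28. No parietal epithelium (median 0.11), proximal tubule, injured tubule, thick ascending limb and collecting duct, or leukocyte gene on the lists did. With 2.99% of the other tested genes above 0.5, lists this short may hold none, so this absence is not read as a contrast. The median r was -0.062 for 8 proximal tubule genes, -0.086 for 4 injured tubule genes, 0.038 for 4 thick ascending limb and collecting duct genes and -0.055 for 7 leukocyte genes. How much glomerulus each piece of kidney held was not measured, and its part in the order of the kidneys was not tested.

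**Figure D4:**
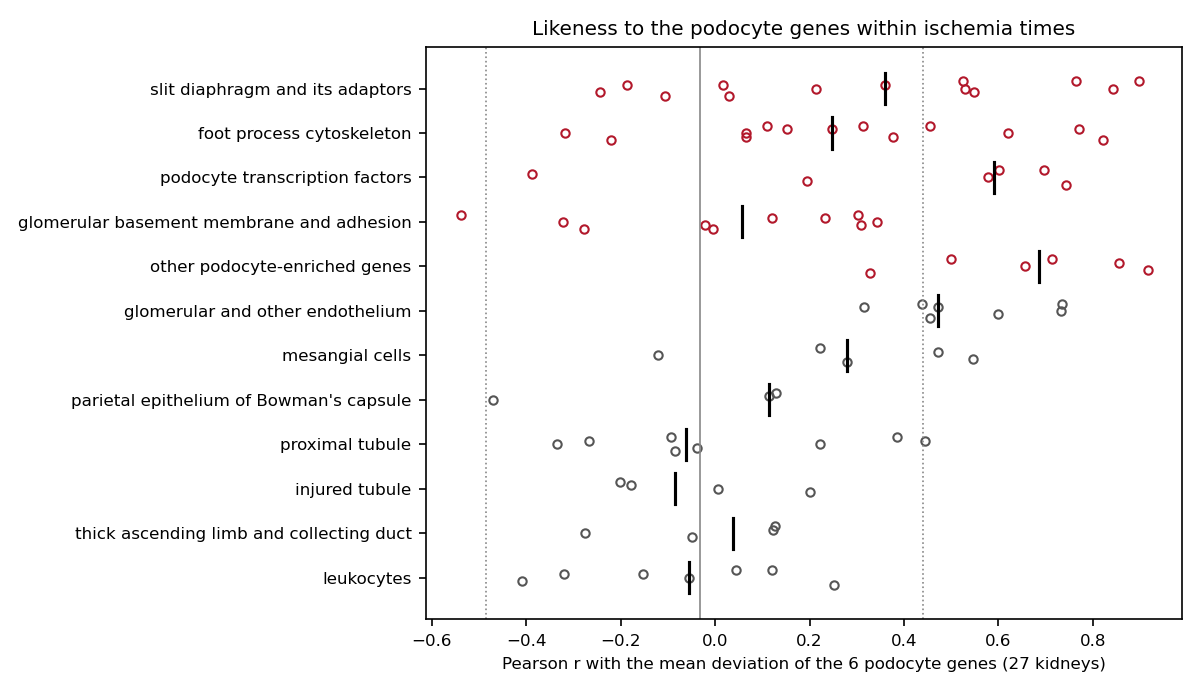
Pearson r over 27 kidneys between each listed gene and the mean of the 6 podocyte genes, both as deviations from the time means (horizontal axis), by list (vertical axis). Circles are genes, red for podocyte lists and grey for other lists, black bars are list medians, and the solid and dotted vertical lines mark the median and the central 90% of 18182 other tested genes (-0.033, -0.49 to 0.44). Several podocyte genes, 3 endothelial genes and 1 mesangial gene lie above 0.5, and no listed parietal, tubule or leukocyte gene does. Of the other tested genes, 2.99% lie above 0.5.

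The same lists were read at 30 against 0 min, where 26.9% of all tested genes were higher and 25.4% lower at an adjusted p below 0.05, and 5.14% were higher and 5.59% lower as DEGs. Several list counts lie near these shares, and nothing particular to a list is read from them. Of the 13 slit diaphragm and adaptor genes, 7 were higher and 1 lower at an adjusted p below 0.05 in limma, with a median log2 fold change of 0.38. The single DEG was Cd2ap, which was higher by 1.22 ± 0.11 (SE, adjusted p = 2.7e-08).

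Among 13 foot process cytoskeleton genes 9 were higher and 2 lower, with a median of 0.87, and 5 were DEGs, led by Inf2, a formin (1.62 ± 0.11, adjusted p = 7.7e-10 in limma), and Pdpn, podoplanin (1.29 ± 0.20, adjusted p = 1.5e-05). Most of the summed level of this list came from genes that many kidney cells express, such as Arhgdia at a mean of 465 FPKM, Ezr at 306 FPKM and Actn4 at 184 FPKM at 30 min. Among 10 basement membrane and adhesion genes 6 were higher and 3 lower. The 2 largest of its 4 DEGs were the integrin subunit gene Itga3 (2.08 ± 0.20, adjusted p = 2.8e-08) and the tetraspanin gene Cd151 (1.60 ± 0.13, adjusted p = 3.0e-09), and the collagen IV genes Col4a3 (-0.95 ± 0.16, adjusted p = 5.9e-05) and Col4a4 (-0.85 ± 0.15, adjusted p = 5.9e-05) were lower. Within ischemia times, the r with the podocyte genes was 0.25 for Inf2, -0.32 for Pdpn, -0.32 for Itga3 and -0.28 for Cd151. It was 0.30 for Col4a3 and 0.23 for Col4a4. Which cells gave these differences was not tested.

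Of 6 podocyte transcription factors other than Wt1, 1 passed in limma, Foxc2, which was higher by 0.72 ± 0.15 (SE, adjusted p = 4.1e-04), and none was a DEG. Lmx1b differed by 0.18 (adjusted p = 0.21) and Tcf21 by -0.58 (adjusted p = 0.060). Of 6 other podocyte-enriched genes 2 were DEGs, the cell cycle inhibitor gene Cdkn1c (1.18 ± 0.20, adjusted p = 6.2e-05) and Sema3g (1.07 ± 0.26, adjusted p = 0.0018), and Vegfa was lower by 0.73 on the log2 scale. Sema3g rose from 7.27 ± 1.19 FPKM (SD, n = 3) at 0 min to 18.5 ± 6.77 FPKM at 30 min.

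Genes of the cells beside the podocyte moved at 30 min as well. Of 7 endothelial genes 5 were higher, none as a DEG, and the list summed to 75.6 to 89.6 FPKM in the 0 min kidneys, 76.4 to 91.0 FPKM at 28 min and 101 to 162 FPKM at 30 min. Pecam1 was higher by 0.87 ± 0.14 and Cdh5 by 0.78 ± 0.12 (SE, limma, adjusted p = 1.8e-05 and 2.0e-05). In the same kidneys the 6 podocyte genes summed to 36.9 to 49.3 FPKM at 0 min, 60.4 to 78.4 FPKM at 28 min and 62.4 to 111 FPKM at 30 min. Most of this sum was Podxl, which endothelial cells make too, at 37.9, 63.4 and 66.8 FPKM at 30 min. Of 5 mesangial genes 3 were higher and 2 lower, and of 3 genes of the parietal epithelium of Bowman's capsule 2 were higher, the claudin gene Cldn1 (2.12 ± 0.35, adjusted p = 3.0e-05) and Akap12 (3.93 ± 0.26, adjusted p = 3.9e-10).

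Genes of the proximal tubule and of injured tubules differed too. Of 8 proximal tubule genes 7 were lower, all as DEGs, with a median of -2.21. The list summed to 51285 to 54376 FPKM at 0 min and 6307 to 8504 FPKM at 30 min. Most of this sum came from a single listed gene, Kap. It held 8.68% to 9.26% of the summed FPKM of all genes at 0 min and 0.931% to 1.43% at 30 min. Of 4 injured tubule genes 3 were DEGs, among them Havcr1, which encodes KIM-1, at 7.06 ± 0.74 (SE, limma, adjusted p = 1.3e-07). Of 7 leukocyte genes 3 were higher and 1 lower, and Ptprc, the gene of the pan-leukocyte surface protein CD45, was at 0.84 to 1.56 FPKM at 30 min and 1.24 to 1.80 FPKM at 0 min. FPKM is a share of the sequenced fragments, so the level of a gene also depends on how much other transcripts contribute, and the part of the lower tubule sums in the podocyte gene differences was not tested. Over all tested genes the median log2 fold change at 30 against 0 min was 0.036 without quantile normalization and 0.051 after rescaling to a constant sum, where the median of the 6 podocyte genes was 0.83 and 0.95.

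**Figure D5:**
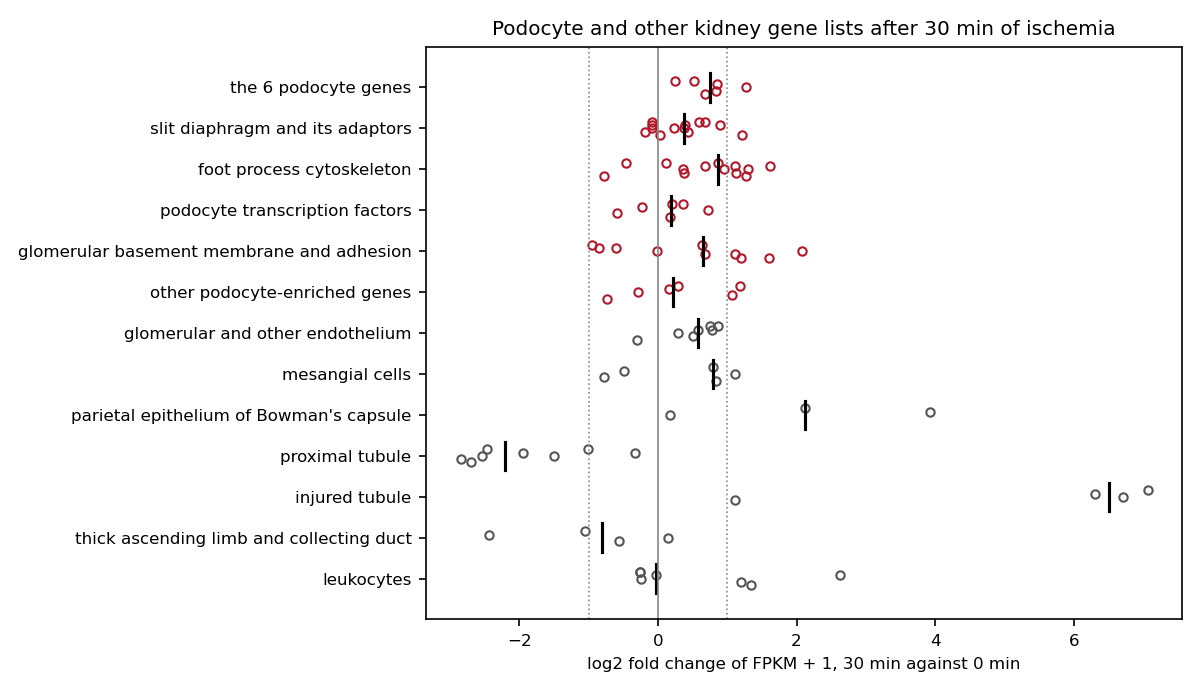
Log2 fold change of FPKM + 1 at 30 against 0 min (horizontal axis) of each gene, by list (vertical axis). Circles are genes, red for podocyte lists and grey for other lists, black bars are list medians, the solid line marks no difference and the dotted lines the DEG limit of 1 in each direction. The 6 podocyte genes lie between 0.25 and 1.27, the proximal tubule genes between -2.85 and -0.33.

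RefSeq promoter windows (GRCm38.p6) were looked up for Nphs1, Plce1 and Ptpro. Synpo was left out of this step by choice, and no window was at hand for Podxl and Wt1. The windows of Nphs1 and Plce1 overlap annotated exons, so they were not searched for motifs and are not printed. Only the window of Ptpro was read. The 250 bases before the start of Ptpro, at chr6:137252049-137252298 on the forward strand, are shown from 5′ to 3′ as the upstream region of one of the genes that varied together between replicate kidneys.

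Ptpro: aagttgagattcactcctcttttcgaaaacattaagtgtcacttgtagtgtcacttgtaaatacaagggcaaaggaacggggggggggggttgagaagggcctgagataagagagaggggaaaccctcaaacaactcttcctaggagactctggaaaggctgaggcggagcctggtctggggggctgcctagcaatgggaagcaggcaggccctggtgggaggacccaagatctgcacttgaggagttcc

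Capitals would mark a match to one of 3 motifs searched on both strands, and there was none in this window. The motifs were GCGNGGGNG, of the type that WT1 binds and present in 10.5% of 32851 promoter windows of the same length, TAATTA, of the type that LMX1B binds (4.84%), and the E-box CAGCTG (13%). The G and C content of the window was 53.6%, beside a median of 52.4% over all windows. The absence of these letters from this window says nothing about the factors themselves.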

How the data were processed

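RNA-Seq of 27 mouse kidneys was analysed from one deposited table of FPKM per gene. The submitters' processing notes name Bowtie2, RSEM, DESeq2 and build GRCm38.p6. The tools' versions and roles, the annotation and the strand setting are not given in the sources used here. The authors call the unit RPKM in their methods, and the column names of the deposited table give FPKM. No counts were used, so no depth-based interval is given.

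Genes above 0 FPKM in at least 3 kidneys were tested. Values were transformed as log2(FPKM + 1), quantile normalized between kidneys and fitted with limma 3.58.1 in R 4.3.3, with 1 mean per ischemia time and empirical Bayes moderation. Quantile normalization, the log2 scale, limma and the DEG limits follow the study's methods. Its background correction and median polish summarization were not applied, and the pseudocount, the filter and the order of the log2 and quantile steps were chosen here. P-values were two-sided and adjusted (Benjamini-Hochberg) over all genes tested. Each time was compared with 0 min and with its neighbour, 28 and 30 min with 16 to 26 min, and all times by a moderated F-test. The comparison of 16 to 26 with 0 min and the levels relative to the other 5 genes were added after the data were seen. Correlations between members used 100000 permutations within ischemia times, adjusted over 15 pairs. Correlations with other genes, list counts and medians are descriptions. The fit was tested on simulated data.

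The 6 genes, the marker lists, the tests and the named genes were chosen with earlier results of these data known. Named from each list were the 2 DEGs most increased and most decreased at 30 against 0 min, reference markers fixed by name, and genes among the 5 most correlated with the 6 over all kidneys; some genes under this rule are not reported here. Other genes named for likeness within times, and Actn4, Ezr, Arhgdia, Col4a3, Col4a4 and Vegfa, were chosen after their values were seen. Kirrel1 is listed in the table as Kirrel. Positions are from GENCODE (GRCm38) and the promoter from RefSeq. The alternatives were another pseudocount (0.1), filter, scaling, moderation, a replicate block, a fit of the compared groups alone and leaving out each kidney in turn.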

Additional observations from a re-analysis of the deposited data

How the results depend on the processing

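No log2 fold change of a podocyte gene changed direction while past the threshold. The number of DEGs at 30 against 0 min was 3 with a pseudocount of 0.1 FPKM and 2 after rescaling to a constant sum (TPM), where it was 1 at 28 against 0 min. At 26 against 0 min the number with an adjusted p below 0.05 in limma was 1 instead of 0 under several alternatives. The gene was Synpo without quantile normalization, after rescaling, with a filter of at least 1 FPKM, with trend and robust moderation, and with the replicate block. In the fit of only the groups compared the gene was Plce1 (adjusted p = 0.036). Replicate numbers do not pair the kidneys (mean correlation of deviations 0.0087 for equal and -0.0046 for unequal numbers), and the replicate block moved no other count by over 1.5 times. At 16 to 26 against 0 min the number was 1 without quantile normalization and after rescaling. The fit of only the groups compared gave 2 at 30 against 0 min instead of 4, as Wt1 (adjusted p = 0.090) and Plce1 (adjusted p = 0.062) no longer passed, and 1 each at 22 against 0 and 28 against 26 min.

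When single kidneys were left out, the number with an adjusted p below 0.05 ranged from 2 to 4 at 30 against 0 min, 0 to 3 at 30 against 28 min, 0 to 1 at 26 against 0 min (1 without replicate 3 at 26 min) and at 16 to 26 against 0 min (1 without replicate 1 at 16 min), 4 to 5 at 28 and 30 against 16 to 26 min, and 2 to 4 in the F-test over 9 times (2 without replicate 2 or 3 at 30 min). The number of DEGs at 30 against 0 min ranged from 1 to 3. Ptpro passed at 28 and 30 against 16 to 26 min with a filter of at least 1 FPKM (adjusted p = 0.042). With 3 kidneys per time, the 95% interval for Nphs1 at 30 against 0 min, -0.079 to 1.12, includes differences larger than a DEG limit.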
